A study of Mus musculus with 6 samples.

Results

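Hair bulbs labelled anN1 were compared with wild-type hair bulbs at postnatal day 9, with 2 arrays in each group, 4 of the 6 arrays of the study. The anN1 bulbs came from skin areas in which Notch1 was deleted during anagen, the growth phase of the hair cycle, and the labels state that functional Notch1 was present in them. The other group is labelled wild-type. The remaining 2 arrays, called emN1, came from areas deleted in the embryo and without functional Notch1, and they enter only as values set side by side. In the study's design both anN1 and wild-type served as controls, so the comparison asks how far these controls differed from each other. The sources used here do not give the strain, the sex and number of animals, the driver of the deletion or how the bulbs were isolated. The members were all autosomal genes with a probe set of their own on the array, of which 12137 of 17405 were bright enough to be tested. They were chosen by position in the genome, with earlier results of these data known, and those tested were kept by their mean signal.

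The hair bulb holds dividing matrix keratinocytes around the dermal papilla, and these cells move upwards as they become hair shaft or inner root sheath. The shaft first fills with early hair keratins, then with later cortex keratins, and finally with keratin-associated proteins that bind the keratin filaments together. Notch1 is a receptor that is cut after a ligand of a neighbouring cell binds it, and its released inner part acts with Rbpj to turn on targets such as the Hes and Hey repressors. In the hair bulb, Notch signalling is known to act in the matrix and in the differentiating layers above it.

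Values are signals in the deposited units. A signal of 112, the 95th percentile of 20 bacterial control probe sets without signal, is called the background limit here. Differences are anN1 minus wild-type on the scale log2(signal + 17.8), and a gene was called when its limma p, adjusted by the Benjamini-Hochberg method over 27022 probe sets, was under 0.05. The replicates are labelled biological, with no word on whether different animals gave them, so a p-value here reflects only how far these arrays scattered, which may in part be technical. In bulk tissue, fewer cells of a type and less RNA per cell cannot be told apart.

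Notch1 signal was present in the anN1 bulbs and was lower there than in wild-type. The brighter of its probe sets read 15077 and 12527 in anN1, against 23750 and 34070 for the wild-type arrays. The dimmer one read 1581 and 2789 in anN1, against 2833 and 3720 for the wild-type arrays. The groups did not overlap on either probe set. The differences were -1.05 (SE 0.23, n = 2 against 2) and -0.62 (SE 0.32), and neither passed the test (limma Benjamini-Hochberg adjusted p = 0.931 for both, unadjusted p = 0.00284 for the brighter). The emN1 arrays read 6498 and 6292 on the brighter probe set and 821 and 1561 on the dimmer one, under both anN1 signals on each. The deleted stretch of the gene is not named, and a probe set lying outside it would be no check on the labels. Whether either probe set follows the deletion was not tested.

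The groups also differed in probe sets that have no place in the Notch pathway. Xist, the RNA that coats the inactive X chromosome of female cells, read 9.88 and 37.9 in anN1 and 16000 and 15916 in wild-type on its probe set with the largest difference. The Y-linked gene Eif2s3y read 10723 and 15581 in anN1 and 32.2 and 5.35 in wild-type. Both genes were called, and every anN1 array had the male pattern and every wild-type array the female one. The control probe set for the 3′ end of the Cre recombinase gene read 395 and 515 in anN1 and 62.4 and 79 in wild-type, so only the anN1 arrays lay above the background limit. Sex, presence of Cre signal and the labelled group therefore cannot be told apart in any difference given here, and their part in the autosomal differences was not tested.

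**Figure D1:**
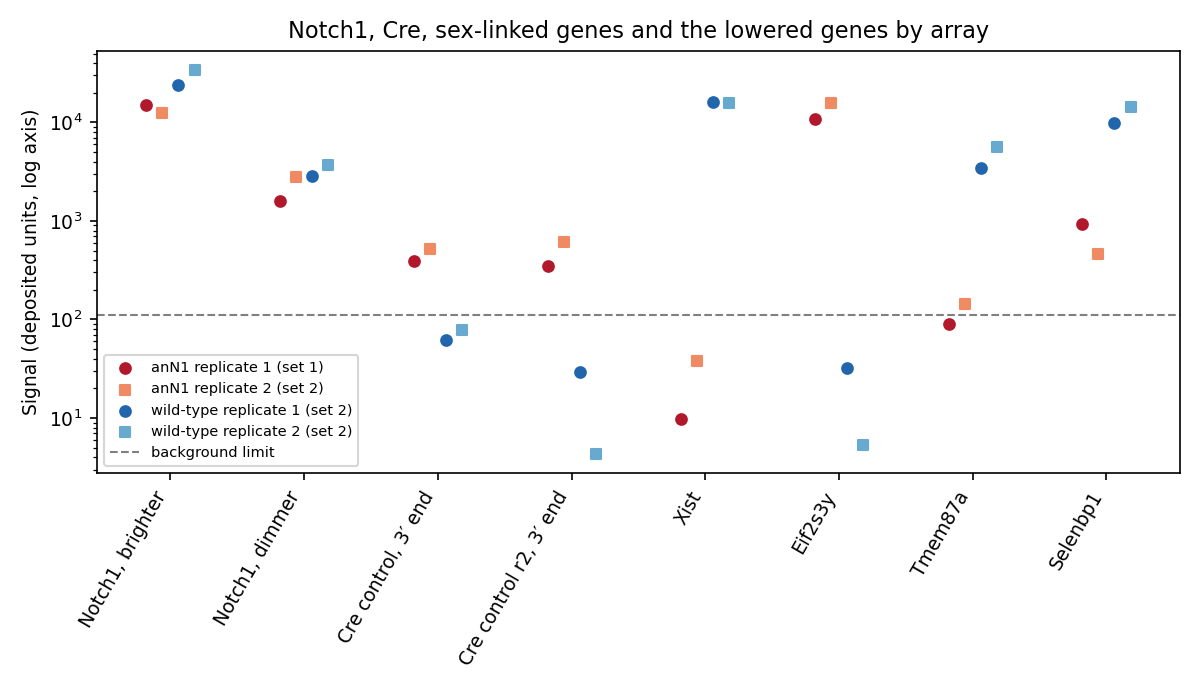
Signal in deposited units on a log axis for both Notch1 probe sets, 2 Cre control probe sets, Xist, Eif2s3y and the called genes Tmem87a and Selenbp1, 1 point an array, with the background limit of 112 dashed. Xist, Notch1, Tmem87a and Selenbp1 lie higher in both wild-type arrays, whereas Eif2s3y and Cre lie higher in both anN1 arrays.

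The arrays were hybridised in 2 sets, and anN1 replicate 1 was the only one of the 4 in the first set. That array had an actin 5′ to 3′ signal ratio of 0.177, against 0.37 to 0.418 on the other 3, and an 18S signal of 86619 against 35234 to 38409. Between 64.6% and 68.1% of probe sets lay above the background limit on each array. The emN1 array of the first set had a ratio of 0.218 and an 18S signal of 85594, against 0.419 and 43041 on that of the second. Among the 4 arrays compared, the first set and the single array anN1 replicate 1 cannot be told apart. The called genes and the gene lists are therefore given also for anN1 replicate 2, which shared its set with both wild-type arrays.

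The anN1 arrays differed from each other in more genes than anN1 replicate 2 differed from wild-type. The anN1 replicates differed by at least 2-fold in 968 of 12137 genes (7.98%), and the wild-type replicates in 385 (3.17%). The array anN1 replicate 2 differed by at least 2-fold from the wild-type arrays in 425 and 450 genes (3.50% and 3.71%), fewer than from its own replicate. The array anN1 replicate 1 differed from the wild-type arrays in 1214 and 1082 genes (10% and 8.91%). Among the genes furthest apart between the anN1 replicates was the keratin-associated gene Krtap4-16, at 2610 and 57.5. Scaf1, which encodes a protein of the splicing machinery, lay the other way, at 10.6 and 941. In wild-type, Krtap4-16 read 31.1 and 71.7 and Scaf1 read 1106 and 595, so for both genes anN1 replicate 1 stood apart from the other 3 arrays.

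**Figure D2:**
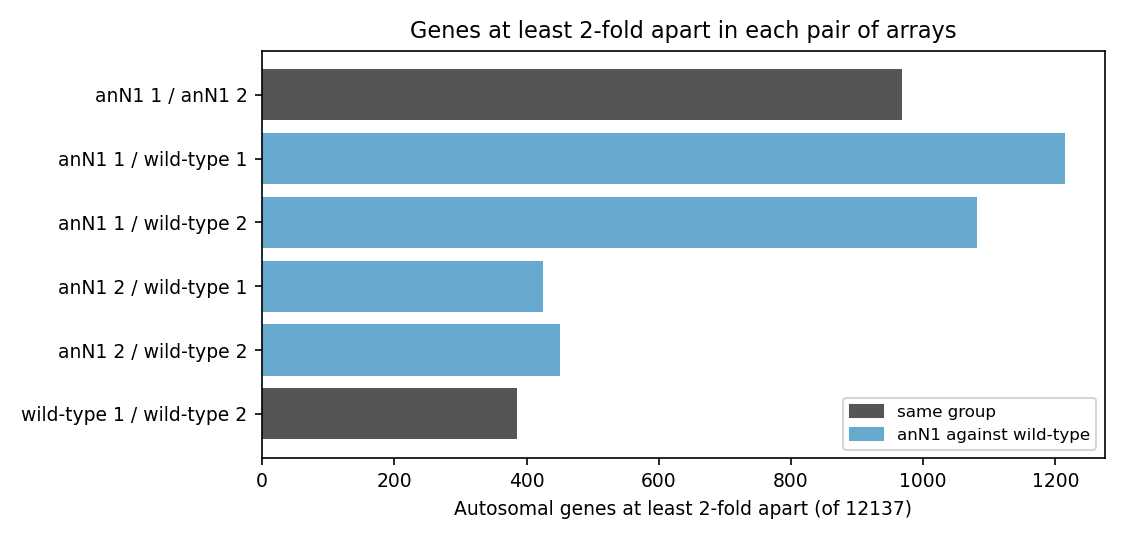
Number of autosomal genes, of 12137 tested, at least 2-fold apart in each pair of arrays, 1 bar a pair, with pairs within a group in grey and pairs between groups in blue. The 3 pairs with anN1 replicate 1 reach 968 to 1214 genes and the other 3 pairs 385 to 450.

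Of 12137 autosomal genes, 4 rose and 2 fell in anN1 (0.0494% of genes, 0.033% for those that rose and 0.0165% for those that fell). The 4 that rose are genes of the hair shaft or are expressed in its cortex: the hair keratins Krt33a and Krt31, the keratin-associated gene Krtap11-1, and Gprc5d, an orphan receptor of the hair cortex. The 2 that fell were Selenbp1, a selenium-binding protein with methanethiol oxidase activity, and Tmem87a, a membrane protein of the Golgi. They account for 7 of the 12 probe sets called in all (0.0444% of 27022, and 0.0319% of the 21964 autosomal ones). Another 4 were of Xist and Eif2s3y, and 1 had no gene symbol. At an unadjusted limma p under 0.05, 822 probe sets passed (3.04%), fewer than the 1351 expected by chance, and among autosomal genes 241 (1.99%) were higher and 198 (1.63%) lower. Both anN1 signals were above both wild-type signals in 2383 tested genes (19.6%) and below them in 2053 (16.9%).

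The promoters of the called genes are shown because the genes that rose include members of a family that lie near each other. Each line gives the 100 bases before the transcription start from RefSeq on GRCm38.p6, read along the gene's strand, with the hexamer TATAAA in capitals, or TTTATA where it lies on the opposite strand. Promoters of 5 of the 6 called genes were found, and Krt33a was missing. Krt34 and Krtap17-1, which lie near Krt31 and were not called, are added. The windows are chr11:100050552-100050651 for Krt31, chr11:100041555-100041654 for Krt34, chr11:99993995-99994094 for Krtap17-1, chr16:89571184-89571283 for Krtap11-1, chr6:135118284-135118383 for Gprc5d and chr2:120404117-120404216 for Tmem87a, all on the minus strand, and chr3:94932983-94933082 on the plus strand for Selenbp1.
Krt31: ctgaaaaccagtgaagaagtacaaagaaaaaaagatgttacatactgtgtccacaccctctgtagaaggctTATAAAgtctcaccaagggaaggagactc
Krt34: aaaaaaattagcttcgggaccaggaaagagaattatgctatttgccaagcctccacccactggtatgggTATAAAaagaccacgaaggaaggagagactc
Krtap17-1: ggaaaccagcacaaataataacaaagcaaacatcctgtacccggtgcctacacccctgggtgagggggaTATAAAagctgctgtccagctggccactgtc
Krtap11-1: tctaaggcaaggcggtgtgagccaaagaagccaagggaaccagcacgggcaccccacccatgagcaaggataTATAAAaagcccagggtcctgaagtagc
Gprc5d: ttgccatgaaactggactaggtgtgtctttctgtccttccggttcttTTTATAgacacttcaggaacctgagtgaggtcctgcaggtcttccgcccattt
Selenbp1: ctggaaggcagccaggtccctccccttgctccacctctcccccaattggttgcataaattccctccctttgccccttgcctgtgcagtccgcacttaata
Tmem87a: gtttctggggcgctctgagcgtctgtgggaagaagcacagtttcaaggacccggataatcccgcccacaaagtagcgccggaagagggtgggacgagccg
The hexamer began 29 bases before the start in Krt31, 28 in Krtap11-1, and 31 in both Krt34 and Krtap17-1. Gprc5d had it on the opposite strand, and Selenbp1 and Tmem87a had it on neither strand of this window. On either strand it was in 1827 of 32851 windows of this length (5.56%), and in 375 of the 9785 tested genes with a window (3.83%). Of keratin and keratin-associated genes with both anN1 signals above both wild-type signals, 20 of 27 had it (74.1%), and of the other genes of these families 8 of 18 did (44.4%). This split was made by the same signals, and a dim gene could be kept through anN1 alone. Members of these families share sequence, so their windows may not be independent. Whether the hexamer goes with the difference was not tested. A match is a description of the letters and not of a factor bound there.

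Krt33a, an acidic keratin of the shaft cortex, read 47315 and 31220 in anN1 and 4711 and 5788 in wild-type, 7.34-fold higher (log2 2.88, SE 0.25, limma Benjamini-Hochberg adjusted p = 0.0328). Krt31, near it on chromosome 11 and also an acidic cortex keratin, read 57068 and 46990 against 10755 and 9626. It was 5.08-fold higher (log2 2.35, SE 0.18, limma adjusted p = 0.0247). In both genes the lower anN1 array lay far above the higher wild-type array. Gprc5d read 6671 and 7778 in anN1 and 1287 and 1277 in wild-type, a 5.56-fold difference (log2 2.47, SE 0.21, limma adjusted p = 0.0328). Krtap11-1 read 40957 and 35566 against 10829 and 9705, 3.72-fold higher (log2 1.89, SE 0.17, limma adjusted p = 0.0437). None of the 4 had overlapping groups, and the anN1 arrays of the different sets lay close together beside the distance to wild-type.

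Tmem87a read 89.2 and 143 in anN1 against 3482 and 5586 in wild-type, which was the largest difference of an autosomal gene (log2 -5.08, SE 0.37, limma Benjamini-Hochberg adjusted p = 0.0243). Since anN1 replicate 1 lay under the background limit there, the 33.7-fold size is uncertain, and with signals raised to that limit it was 30.6-fold. Selenbp1 read 931 and 467 in anN1 and 9800 and 14226 in wild-type, 17.4-fold lower (log2 -4.12, SE 0.37, limma adjusted p = 0.037). Its second probe set read 717 and 402 against 7096 and 9932 and was called as well. For both genes each anN1 array lay far under each wild-type array.

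The groups of these 6 genes did not overlap, so leaving out 1 array could not change a direction. Most calls did not hold when 1 array was left out. A lone array is then assumed to vary like the other group's pair, which leaves 1 residual degree of freedom. Without anN1 replicate 1 or without anN1 replicate 2, 0 of the autosomal genes were called in limma, although 780 and 5584 probe sets had an unadjusted p under 0.05. Without anN1 replicate 2 the log2 differences were 3.17 for Krt33a, 2.49 for Krt31, 2.36 for Gprc5d, 2.00 for Krtap11-1, -3.64 for Selenbp1 and -5.37 for Tmem87a (limma adjusted p = 0.0561 for each). Without wild-type replicate 1 the calls were Selenbp1 and Tmem87a, and without wild-type replicate 2 they were these and the cortex keratin Krt33b. In those fits Krt33a was at 2.73 and 3.02, Krt31 at 2.42 and 2.27, Gprc5d at 2.48 and 2.47, and Krtap11-1 at 1.97 and 1.82. The same single-set comparison, anN1 replicate 2 against both wild-type arrays, gave log2 differences of 2.58 for Krt33a, 2.21 for Krt31, 2.59 for Gprc5d, 1.79 for Krtap11-1, -4.61 for Selenbp1 and -4.78 for Tmem87a. These directions, too, were fixed by the groups lying apart. With set as a term none passed limma (adjusted p from 0.0933 to 0.228).

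**Figure D3:**
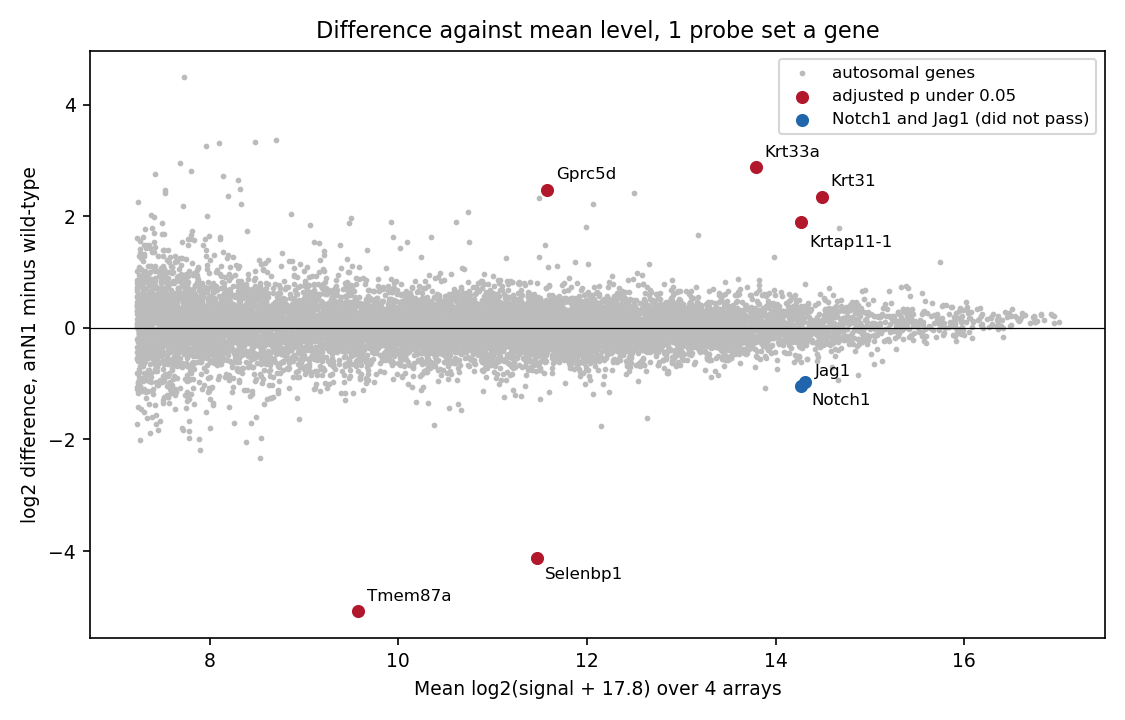
Log2 difference, anN1 minus wild-type, against the mean log2 signal over the 4 arrays for 12137 autosomal genes, 1 point a gene, with the 6 called genes in red and Notch1 and Jag1, which did not pass, in blue. The 4 called genes that rose lie between 1.89 and 2.88, and Selenbp1 and Tmem87a lie at -4.12 and -5.08.

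The emN1 arrays, read on the same scale, had signals of these 6 genes on the anN1 side of wild-type. Krt33a read 76982 and 64642 in emN1, Krt31 63136 and 52243, and Krtap11-1 72801 and 55753. Gprc5d read 17168 and 20253. Tmem87a read 322 and 225, and Selenbp1 read 554 and 295. Of the called genes that rose, Krt33a, Krtap11-1 and Gprc5d had both emN1 signals above both anN1 signals, which were in turn above both wild-type signals. The wild-type arrays are the same in both contrasts, and the emN1 arrays had the same Xist and Eif2s3y pattern as anN1, so no test is made.

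Hair shaft genes were described as a list, over all its genes on the array whether or not they were bright enough to be tested, as are all lists below. Of all 17405 autosomal genes on the array, 19.2% had both anN1 signals above both wild-type signals and 16.2% had both below, and their median difference was 0.03. Of the 12137 tested, 0.0494% were called, so a list without a called gene says little. In the list for cortex and cuticle, Krt31 and Krt33a rose and the other 24 of 26 measured genes were not called. Both anN1 signals were above both wild-type signals in 14 of the 26 and below them in 5 (19.2% and 16.2% of all genes). The median difference of the list was 0.45, and it was 0.46 for anN1 replicate 1 and 0.30 for anN1 replicate 2. Without anN1 replicate 1, a count chosen after seeing the data, 14 of the 26 lay above both wild-type signals and 8 below, where 5843 and 5834 of all 17405 genes did.

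Krt83, a basic keratin of the cortex, read 16411 and 10807 in anN1 and 2357 and 2637 in wild-type (log2 2.41, SE 0.25, limma Benjamini-Hochberg adjusted p = 0.081). Krt32, an acidic keratin of the cuticle, read 17466 and 15389 against 6675 and 4021 (log2 1.66, SE 0.27, limma adjusted p = 0.552). Krt81, a basic cortex keratin, read 1529 and 2200 against 624 and 619 (log2 1.53, SE 0.29). These 3 genes had groups that did not overlap and missed the threshold, as did the cuticle keratin Krt82, with 8519 and 7087 against 5322 and 3331 (log2 0.88, SE 0.27). Krt84, another hair keratin, lay the other way, at 150 and 110 against 159 and 196 (log2 -0.41, SE 0.46). Krt33b, an acidic cortex keratin, read 1653 and 1052 against 60.4 and 197, and Krt34 read 565 and 875 against 48.2 and 165. In both genes wild-type replicate 1 lay under the background limit, and with signals raised to it the folds were 8.02 and 4.68. Krt86 read 525 and 327 against 103 and 32.7, so both wild-type signals lay under the limit and it was at least 3.34-fold higher.

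Krt35, an early keratin of the matrix and lower cortex, read 72332 and 46226 in anN1 and 65641 and 60194 in wild-type (log2 -0.12, SE 0.24). Krt36, another acidic hair keratin, read 2306 and 2363 against 2499 and 2185 (log2 -0.00, SE 0.22). The groups overlapped for both. None of the 7 transcription factors of the list was called. Hoxc13 differed by -0.09 (SE 0.20), Lef1 by -0.13 (SE 0.18), Msx2 by -0.21 (SE 0.24), Dlx2 by -0.43 (SE 0.31) and Dlx3 by -0.67 (SE 0.38), all with overlapping groups. Msx1 differed by -0.24 (SE 0.19), with both anN1 arrays the lower ones. Foxn1, which drives hair keratin genes, read 6774 and 4900 against 4564 and 3979 (log2 0.43, SE 0.23). Its other probe set differed by -0.13 (SE 0.30), with overlapping groups. Mt4, a metallothionein of stratified epithelia, read 58063 and 40533 against 12700 and 15373 (log2 1.79, SE 0.23, limma Benjamini-Hochberg adjusted p = 0.196). Ctsl and Dsc2 of this list were lower on both anN1 arrays, by -0.74 (SE 0.19) and -0.55 (SE 0.20).

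Keratin-associated proteins surround and cross-link the keratin filaments. Of the 34 such genes of the list on the array, 17 had both anN1 signals above both wild-type signals, 1 had both below and 16 had overlapping groups (19.2% and 16.2% of all genes lay above and below). The median difference over the 34 was 1.62, with 2.62 for anN1 replicate 1 and 0.55 for anN1 replicate 2. Without anN1 replicate 1 the remaining anN1 signal was above both wild-type signals in 18 of the 34 and below both in 5. Of all 17405 genes on the array, 5843 and 5834 lay so. Among the 20 bright enough to be tested, Krtap11-1 rose and 19 did not pass. Of the 15 genes with the largest higher values and groups apart, 12 had Krt or Krtap symbols. The others were Gm10229, Ccnb1ip1 and Gprc5d. Among all 12137 tested genes, Krt genes numbered 19 on chromosome 11 and 18 on chromosome 15. Krtap genes numbered 14 on chromosome 16, 5 on chromosome 11, 2 on chromosome 10 and 1 each on chromosomes 1 and 7. By rule these 15 had both anN1 signals above the background limit, so a dim gene could enter through anN1 alone. For Krtap6-5, Krtap16-3, Krtap17-1 and Krt86 both wild-type signals lay under the limit.

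Some of these genes were higher on both anN1 arrays. Krtap8-1 read 91264 and 74769 in anN1 and 31211 and 42221 in wild-type (log2 1.19, SE 0.21). Krtap7-1 read 5518 and 7480 against 934 and 1735 (log2 2.32, SE 0.34, limma Benjamini-Hochberg adjusted p = 0.367). Krtap15 read 8007 and 4003 against 2301 and 2669 (log2 1.19, SE 0.34). For each of these the groups did not overlap. Krtap17-1 read 676 and 873 against 107 and 108, and Krtap13-1 read 576 and 1233 against 119 and 37.2. Both wild-type signals of Krtap17-1 were under the background limit, so it was at least 6.06-fold higher. All 4 arrays were above the limit for 10 of the 34 genes, and in 9 of these 10 both anN1 signals were above both wild-type signals.

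Other keratin-associated genes were detected on anN1 replicate 1 alone. In 12 of the 34 genes that array was above the background limit, with signals from 252 to 2610, while the other 3 arrays were below it. Krtap19-3 read 1966 and 12.4 in anN1 and 33 and 12 in wild-type, Krtap4-1 read 1586 and 51.9 against 67.6 and 10.5, and Krtap6-2 read 1127 and 23.3 against 13.4 and 38.2. On anN1 replicate 2, 16 of the 34 genes lay under the limit, against 2 on anN1 replicate 1 and 20 on each wild-type array. Krtap6-5 lay between these patterns, with 2601 and 364 in anN1 against 45.3 and 13.7 in wild-type, at least 7.72-fold higher by the group means.

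**Figure D4:**
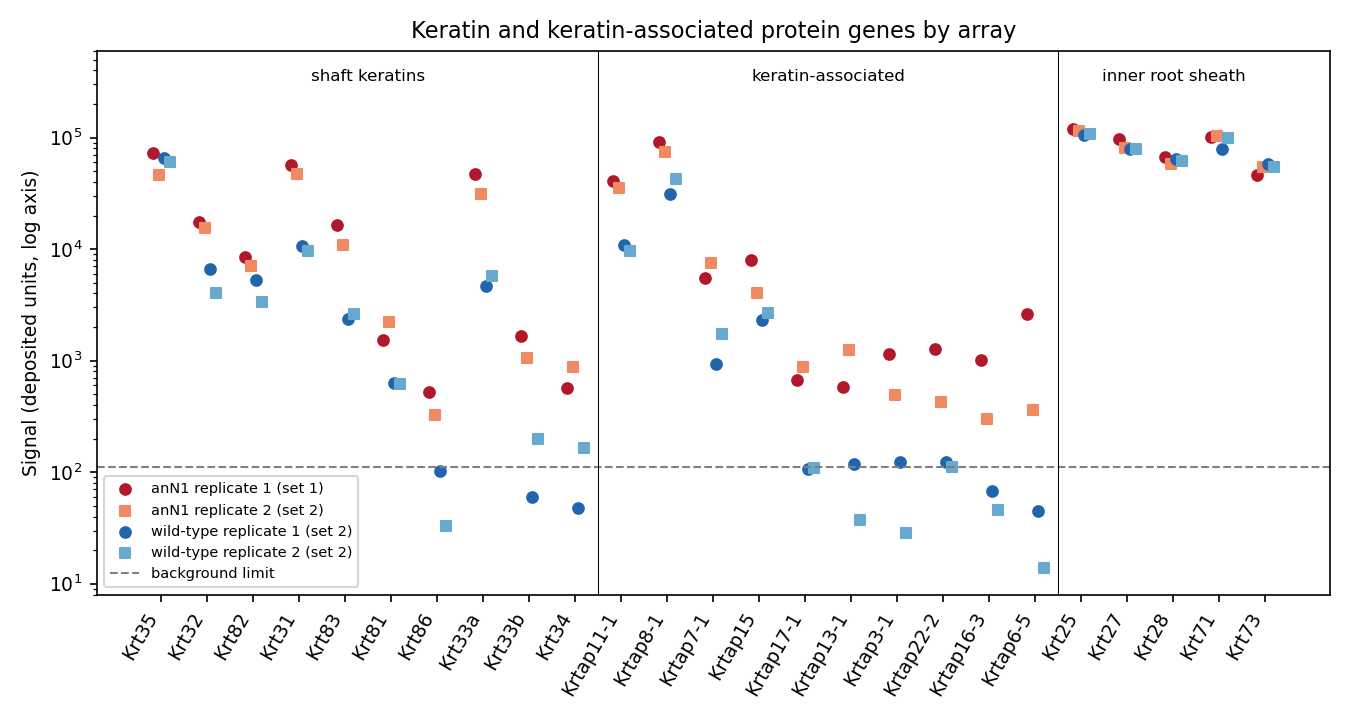
Signal in deposited units on a log axis for 25 keratin and keratin-associated genes, 1 point an array, grouped as shaft keratins, keratin-associated genes and inner root sheath keratins, with the background limit of 112 dashed. The anN1 points of Krt31, Krt33a, Krt83, Krtap11-1 and Krtap7-1 lie above both wild-type points, and those of Krt35 and the inner root sheath keratins lie among or close to them.

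Of the 164 genes at least 2-fold higher in anN1 with groups apart (1.35% of those tested), 18 lay next to another such gene in the genome. At least 2-fold lower were 101 genes (0.832%). On chromosome 11 a run of 6 adjacent protein-coding genes was of this kind: Krtap17-1, Krt33a, Krt33b, Krt34, Krt31 and Krt32. Chromosome 15 had a run of 3, Krt81, Krt86 and Krt83, and chromosome 16 had a run of 3, Krtap8-1, Krtap7-1 and Krtap11-1, besides 3 adjacent pairs that hold Krtap genes. Of lower genes, 1 adjacent pair was found, Col27a1 and Orm1 on chromosome 4. Chromosome 16 had 17 higher and 1 lower gene of 427 (4.22%), and the other autosomes had between 1.16% and 3.03%. These runs are of families whose members share sequence, so probe sets of near-identical copies may share signal.

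The inner root sheath, which moulds the growing shaft, had no called gene among 22 measured. Both anN1 signals were above both wild-type signals in 11 and below them in 4 (19.2% and 16.2% of all genes). The median was 0.17, and it was 0.14 for anN1 replicate 2. Of its keratins, Krt26 differed by 0.55 (SE 0.38) with overlapping groups, Krt72 by 0.16 (SE 0.20), Krt25 by 0.13 (SE 0.15), Krt27 by 0.17 (SE 0.17), Krt28 by -0.03 (SE 0.16), Krt71 by 0.21 (SE 0.18) and Krt73 by -0.17 (SE 0.17). Trichohyalin, Tchh, read 43822 and 49507 in anN1 and 49470 and 43994 in wild-type. Larger differences that missed the threshold included Cst6, a protease inhibitor, with 2009 and 1398 against 482 and 781 (log2 1.42, SE 0.35). Tgm3, a transglutaminase that cross-links sheath and shaft proteins, read 5278 and 3819 against 2242 and 1944 (log2 1.10, SE 0.24). Tchhl1 read 2211 and 1570 against 875 and 660 (log2 1.27, SE 0.30). Mt4, given above, had the largest difference of this list. For Cst6, Tgm3, Tchhl1 and Mt4 the groups did not overlap. Ctsl, a protease, lay the other way with groups apart, at 14242 and 11544 against 19971 and 22994 (log2 -0.74, SE 0.19). Dsg1a was also lower on both anN1 arrays (log2 -0.58, SE 0.31). The genes Mt4, Tgm3, Padi3 and Ctsl are in both this list and the shaft list.

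None of the 27 tested receptors, ligands and processing genes of the Notch pathway was called. Of the 30 on the array, both anN1 signals were above both wild-type signals in 4 and below them in 9 (19.2% and 16.2% of all genes). The median was -0.16, with -0.17 for anN1 replicate 1 and -0.07 for anN1 replicate 2. The ligand Jag1 read 13822 and 15195 in anN1 and 30143 and 26840 in wild-type (log2 -0.97, SE 0.17, limma Benjamini-Hochberg adjusted p = 0.744). Its other tested probe sets differed by -1.83 and -0.74, in the same direction. Mib1, a ubiquitin ligase that ligands need in order to signal, read 7950 and 8126 against 13968 and 13460 (log2 -0.77, SE 0.17, limma adjusted p = 0.931). For Jag1 and Mib1 each anN1 array lay under each wild-type array.

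The other receptors and the nuclear partner differed less. Notch3 read 3241 and 2826 in anN1 and 3740 and 3883 in wild-type (log2 -0.33, SE 0.20). Notch2 read 6262 and 10768 against 12835 and 9218, with overlapping groups. Rbpj, the DNA-binding partner of the cut receptor, read 4410 and 3914 against 4585 and 4575 (log2 -0.14, SE 0.19). The ligand genes Dll1 and Jag2 had differences of 0.17 (SE 0.23) and -0.14 (SE 0.32).

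None of the 14 tested Notch target genes was called. Of the 18 on the array, both anN1 signals were above both wild-type signals in 2 and below them in 6 (19.2% and 16.2% of all genes). The median was -0.05, with -0.01 for anN1 replicate 1 and -0.23 for anN1 replicate 2. Heyl, a repressor induced by Notch, read 3882 and 3718 in anN1 and 5479 and 5834 in wild-type (log2 -0.57, SE 0.19), and its other probe sets differed by -0.98 and -0.67. Nrarp, a feedback inhibitor of the pathway, read 19813 and 20444 against 24710 and 26298 (log2 -0.34, SE 0.16). The groups did not overlap for Heyl or Nrarp. Hes1, another repressor induced by Notch, read 5662 and 4045 against 4878 and 5022 (log2 -0.05, SE 0.23), with overlapping groups.

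Melanocyte genes were mostly higher in anN1, by small amounts. All 18 genes of the list on the array were measured, and none was called. Both anN1 signals were above both wild-type signals in 12 and below them in none (19.2% and 16.2% of all genes). The median was 0.31, with 0.35 for anN1 replicate 1 and 0.23 for anN1 replicate 2. Without anN1 replicate 1 the counts were 15 above and 2 below, where 5843 and 5834 of all 17405 genes lay so. Mc1r, the melanocortin receptor, read 7077 and 5784 in anN1 and 3255 and 4019 in wild-type (log2 0.82, SE 0.22). Mitf, the regulator of the lineage, read 10142 and 9044 against 6183 and 5731 (log2 0.68, SE 0.18). Tyrp1, a melanosome enzyme, read 67604 and 61675 against 49881 and 46902 (log2 0.42, SE 0.16). Groups did not overlap for these 3 genes, whereas they overlapped for Kit (log2 -0.10, SE 0.24), Sox10 (log2 -0.06, SE 0.26) and Trpm1 (log2 -0.07, SE 0.19), which also mark the lineage.

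**Figure D5:**
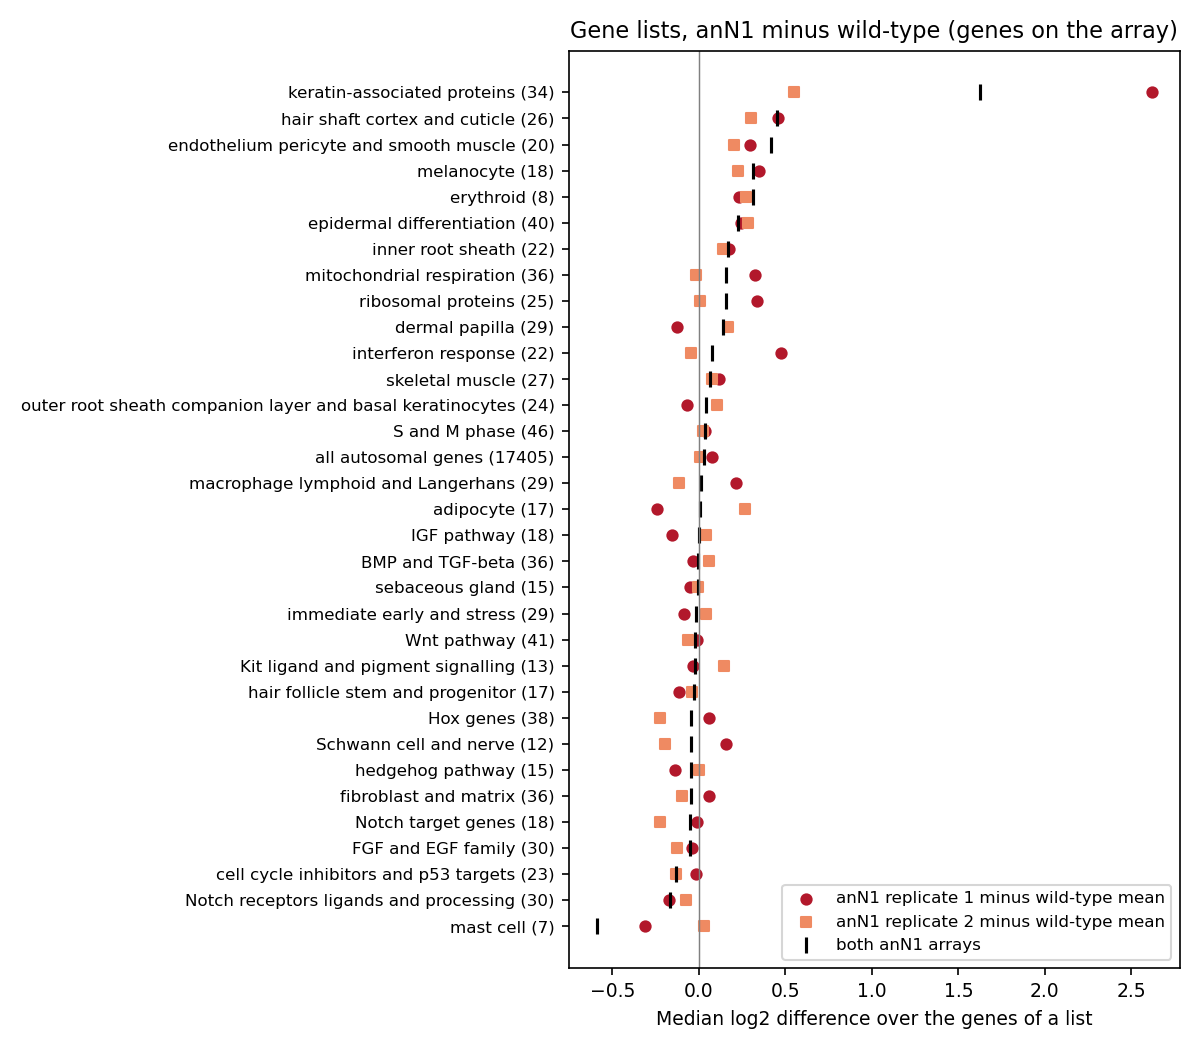
Median log2 difference, anN1 minus wild-type, over the genes of each list, as a circle for anN1 replicate 1 and a square for anN1 replicate 2, each against the wild-type mean, and as a bar for both arrays. Medians are over all genes of a list on the array, tested or not. Keratin-associated genes have the highest medians, at 2.62 and 0.55, and the median over all 17405 autosomal genes is 0.03.

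No gene was called in the lists for dividing cells, for the outer root sheath, or for the other cell types of skin. With 0.0494% of all tested genes called, this says little. Some lists were mostly too dim: 13 of 29 immune, 10 of 27 skeletal muscle and 0 of 7 mast cell genes were tested. Between 11 and 15 of the 29 immune genes lay under the background limit on each array. Of 46 genes of S and M phase, both anN1 signals were above both wild-type signals in 8 and below them in 3 (19.2% and 16.2% of all genes), with medians of 0.04 over both arrays and 0.03 for anN1 replicate 2. The 24 genes of the outer root sheath and basal layer had medians of 0.04 over both arrays and 0.11 for anN1 replicate 2. The 29 dermal papilla genes had 0.14 and 0.17, the 36 fibroblast and matrix genes -0.05 and -0.10, and the 29 immune cell genes 0.01 and -0.12 in the same order. The ribosomal protein list had a median of 0.15, with 0.34 for anN1 replicate 1 and 0.01 for anN1 replicate 2, and the mitochondrial respiration list likewise had 0.33 and -0.02. These last 2 lists thus had their higher medians on the array of the first set and medians near 0 on the other.

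In the epidermal differentiation list, 16 of 40 genes had both anN1 signals above both wild-type signals and 4 had both below (19.2% and 16.2% of all genes). The median was 0.22, and it was 0.28 for anN1 replicate 2. Ivl, which encodes the cornified envelope protein involucrin, read 5435 and 4639 in anN1 and 2029 and 1569 in wild-type (log2 1.48, SE 0.23, limma Benjamini-Hochberg adjusted p = 0.517). Klk7, a protease of the cornified layer, read 5973 and 7064 against 3371 and 4209 (log2 0.78, SE 0.21). Both genes had higher signals on each anN1 array, and neither passed.

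Apart from Tmem87a and Selenbp1, most of the largest lower values were near background. Of the 15 genes with the largest lower values and groups apart, 5 had both anN1 signals under the background limit, 7 had 1 under it and 3 had none. Tmc8, a transmembrane channel-like protein, read 87.3 and 100 in anN1 and 569 and 422 in wild-type, at least 3.92-fold lower. Hoxd8, a homeobox gene of positional identity, was among the 3 with neither under the limit. It read 2347 and 2549 against 6439 and 10773 (log2 -1.76, SE 0.28, limma Benjamini-Hochberg adjusted p = 0.522), and its second probe set differed by -2.39. Hoxd3os1, an antisense RNA of the same cluster, read 237 and 121 against 1019 and 514 (log2 -1.98, SE 0.50). Its dimmer probe set, too dim to be tested, had overlapping groups, at 143 and 95.2 against 16.9 and 134. In the list of 38 positional genes, which holds Hox genes and other limb and skin position genes such as Tbx15, both anN1 signals were above both wild-type signals in 6 and below them in 8 (19.2% and 16.2% of all genes). The median was -0.04, and it was -0.22 for anN1 replicate 2. Hoxa9 of this list lay the other way from Hoxd8, at 1803 and 1105 against 118 and 960 (log2 1.97, SE 0.86), with groups apart. Its dimmer probe set, too dim to be tested, had overlapping groups.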

How the data were processed

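Total RNA of hair bulbs was extracted on columns and labelled with biotin for one-colour oligonucleotide arrays, per the labels' protocols. The authors deposited 1 linear intensity for each probe set, made with MAS5 per the submitters' processing notes. Its version is not given in the sources used here. On every array the mean between the 2nd and 98th percentile was 1500, and the values were not rescaled. Of 45101 probe sets, 64 were controls, and 34958 had 1 gene symbol, 932 several and 9211 none in the platform annotation. Positions came from an annotation of GRCm38.p6, in which 34754 matched.

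Values were analysed as log2(signal + 17.8), where 17.8 is the table's 10th percentile. This scale understates differences of dim genes. The upper 60% of probe sets by mean signal were kept (27022), and a gene was represented by its brightest one (12137 autosomal genes). limma 3.58.1 in R 4.3.3 (lmFit, eBayes with an intensity trend) tested anN1 against wild-type, two-sided, with Benjamini-Hochberg adjustment over all kept probe sets. The residual degrees of freedom were 2 and the prior ones 4.59, and an exact permutation test of 2 against 2 arrays cannot go below p = 0.333. The step was tested on simulated data. Figures were drawn with matplotlib 3.10.9.

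The rule for naming took Notch1, all called genes and the 15 largest differences each way with groups apart. It also took up to 2 uncalled genes from each of 32 lists by unadjusted p. For the anN1 replicates it took the 5 genes furthest apart each way. Only part of the genes taken by this rule are given in the text, and that part was picked with the values known. Members of the shaft, inner root sheath, keratin-associated, Notch and melanocyte lists beyond these were named after their values were seen. The members and lists were chosen with earlier results of these data known. With 2 arrays a group, precision is limited throughout.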

Additional observations from a re-analysis of the deposited data

Results flagged for a closer look

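The array carries control probe sets for the Cre recombinase gene of a bacteriophage, which no comparison above tests. On 3 of the 4 both anN1 arrays lay above the background limit and both wild-type arrays under it. The first probe set for the 3′ end read 395 and 515 in anN1 against 62.4 and 79 in wild-type. The second for the 3′ end read 353 and 612 against 29.2 and 4.29, and the second for the 5′ end read 124 and 187 against 11 and 33.4. The first for the 5′ end was under the limit on all 4 arrays, at 11.4 and 27.4 in anN1 against 3.12 and 4.25. Genes were not tested for single outlying arrays, since each group held 2.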

How the results depend on the processing

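The counts depended on how the spread was estimated. Against 12 probe sets and 6 autosomal genes called, limma gave 0 and 0 without the intensity trend (smallest adjusted p 0.0566, 966 probe sets at an unadjusted p under 0.05) and 0 and 0 with array set as a term over the 4 arrays (smallest adjusted p 0.057, 781 unadjusted). The cause was not tested, beyond the lone array of the first set leaving 1 residual degree of freedom in that fit. With all 6 arrays, 3 groups and set as a term, 21 probe sets and 12 genes passed, among them all 6 named and also Crct1, Csta1, Krt81, Krt83, Krtap17-1 and Mt4. Leaving out 1 array at a time could not change the direction of Notch1, whose groups did not overlap. Its log2 difference then ran from -1.31 to -0.79. Quantile normalization gave 15 and 8, and signals raised to the background limit 13 and 7.

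Replicate numbers of anN1 and wild-type are shared by name alone: replicate 2 minus replicate 1 correlated with r = -0.03 between the groups across 27022 probe sets. With the replicate number as a block, 20 probe sets and 9 genes passed.

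The 6 called genes kept their direction under every setting run. Their groups did not overlap, so leaving out 1 array could not have changed it. Of 14 alternatives, the call held in 8 for Krt31, Krt33a and Gprc5d, in 7 for Krtap11-1 and in 10 for Selenbp1 and Tmem87a. Of the named genes, 2 changed sign: Gas1 was 0.009 with set as a term and ranged from -1.36 to 0.009 when 1 anN1 array was left out, and Hba-a2 ranged from -0.034 to 0.80 when 1 wild-type array was left out.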

Other observations

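Of the tested autosomal genes, 19.6% had both anN1 signals above both wild-type signals and 16.9% had both below. Among those of other lists that did not pass, some of the genes named by the rule follow. Elovl3, a fatty acid elongase of sebaceous glands, read 901 and 1000 in anN1 and 314 and 327 in wild-type (log2 1.51, SE 0.31). Krt79, also of the sebaceous gland list, lay the other way, at 926 and 970 against 1555 and 1660 (log2 -0.75). Of the 15 genes of that list on the array, 2 had both anN1 signals above and 3 both below (19.2% and 16.2% of all genes). The median of that list was -0.005. Epgn, a ligand of the epidermal growth factor receptor, read 2416 and 2288 against 980 and 1267 (log2 1.07, SE 0.25). Hspb1, a small heat shock protein of differentiating keratinocytes, read 62666 and 48930 against 33807 and 32058 (log2 0.75, SE 0.18). For Elovl3, Epgn and Hspb1 both anN1 arrays were the higher ones.

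In the opposite direction, Ddit4, a stress-induced inhibitor of the growth regulator mTOR, read 1368 and 1970 in anN1 and 3222 and 4563 in wild-type (log2 -1.22, SE 0.29). Trps1, a transcription factor of the dermal papilla and the matrix, read 2787 and 3180 against 5709 and 4839 (log2 -0.82, SE 0.21). Both anN1 arrays were the lower ones for Ddit4 and on this Trps1 probe set. The other tested probe sets of Trps1 differed by -0.59, -0.15 and 0.10, with overlapping groups for -0.15 and 0.10. Of the 29 dermal papilla genes on the array, both anN1 signals were above both wild-type signals in 7 and below them in 5 (19.2% and 16.2% of all genes).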
